A study of Mus musculus with 12 samples.

Results

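The response of wild-type mouse embryonic fibroblasts to interferon beta was described from 6 arrays of a series of 12. Fibroblasts of genotype Sirt2+/+ that had been given mouse IFNβ at 2500 IU/ml for 4 h (3 arrays) were set against Sirt2+/+ fibroblasts left untreated (3 arrays). The members were chosen by these sample labels alone, and the other 6 arrays carry RNA of Sirt2-/- fibroblasts, which were used here only for the normalization, a check of mixed transcripts and an alternative estimate of the spread. Embryonic fibroblasts are connective tissue cells grown from mouse embryos, and both groups share the Sirt2+/+ genotype. The labels name no strain, embryo or passage. They leave unsaid if replicates came from separate cultures, and the p-values therefore rest on a spread between arrays that may be technical. Total RNA was copied into biotinylated RNA, which was hybridised to single-colour bead arrays (Illumina), 1 sample per array. Each probe gives a brightness, reported below as a normalized intensity on the log2 scale, so that a difference of 1 is a 2-fold difference.

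Type I interferons such as interferon beta bind a receptor made of the chains IFNAR1 and IFNAR2, whose attached kinases JAK1 and TYK2 phosphorylate transcription factors of the STAT family, among them STAT2. Together with IRF9 these form a complex that enters the nucleus and binds the interferon-stimulated response element (ISRE) in the promoters of interferon-stimulated genes, while STAT dimers bind another element, the gamma-activated site (GAS). The products of these genes block virus entry, destroy viral RNA, stop translation and raise the display of peptides to T cells, and some of them shut the pathway down again. Fibroblasts carry the receptor and are a classical cell type for interferon assays.

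A probe counted as detected on an array where its detection p, which sets it against the negative controls of that array, was under 0.05. On the 6 arrays 17091 to 18155 of 45281 probes were detected, with median raw intensities of 111.3 to 119.9. Probes detected on all 3 arrays of either group were kept, 16660 in all, and 1 probe per gene symbol left 11435 features, of which 9229 carry a gene symbol and 2206 do not. A gene counts here as detected on an array where any of its probes was. Of 14 fibroblast markers on the arrays, 12 were detected on all 6 arrays, among them the collagen genes Col1a1, Col1a2 and Col3a1. Of 13 macrophage markers 12 were detected on none of the 6, including Ptprc, Csf1r and Adgre1. The same was true of 7 of 9 lymphocyte, 8 of 12 dendritic cell, 6 of 10 endothelial, 5 of 10 epithelial, 5 of 8 muscle and 4 of 9 neural markers. Detected on all 6 arrays were the macrophage marker Cd14, the lymphocyte marker Cd3e, the dendritic cell markers Siglech and Bst2, the endothelial marker Egfl7, the epithelial markers Krt18 and Krt19, the muscle markers Acta1 and Tnnc1 and the neural markers Sox2, Nes and Map2. Of the marker genes tested, Bst2, which is also an interferon-stimulated gene, rose, as did the endothelial marker Esam (0.81 ± 0.14), detected on 1 untreated array. The fibroblast marker Pdgfra differed by −0.62 ± 0.11 and the epithelial marker Krt19 by −0.50 ± 0.14 (adjusted p = 0.049), a call lost with a replicate block (adjusted p = 0.0522). The first principal component held 79.3% of the variance of the 6 arrays and separated the treated from the untreated ones. The second held 7.26%, and on it untreated array 1 (18.77) lay apart from untreated arrays 2 and 3 (−11 and −9.41).

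A further pair of arrays differed from the rest of their group in particular transcripts. Treated array 2 held transcripts of 3 genes that were otherwise found only in the Sirt2-/- arrays (Bmp4, Cdkn2a and Eif2s3y), all 3 detected, at a median of 4.29% of their level there. Untreated array 2 stood above the other untreated arrays in many interferon-stimulated genes, as described further on for features chosen by their rise. Without treated array 2 the comparison called 654 features higher and 441 lower, and without untreated array 2 it called 631 higher and 539 lower.

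With all 6 arrays, 722 of 11435 features were higher in treated than in untreated cells (6.31%) and 737 were lower (6.45%) at an adjusted p under 0.05, 12.8% in either direction. The rises and the falls differed in size. At least 2-fold were 348 of the higher features (3.04% of those tested) and 14 of the lower ones (0.122%), which is 48.2% of the higher and 1.9% of the lower calls. The median change was 0.97 on the log2 scale among the higher features and −0.53 among the lower ones, and −0.06 over all features tested. Rises reached at least 4-fold in 162 features, at least 8-fold in 98, at least 32-fold in 32 and at least 256-fold in 8. The 3 treated arrays lay above all 3 untreated ones in 1268 features (11.1%) and below them in 2358 (20.6%).

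When any 1 array was left out, rises of at least 2-fold numbered 344 to 356 (348 with all arrays). Falls of at least 2-fold numbered 12 to 22 (14 with all arrays). Without a fold threshold both counts dropped, the falls further than the rises. Rises of any size numbered 547 to 654, against 722 with all arrays. Falls of any size numbered 293 to 539, against 737 with all arrays. These falls were 293, 441 and 441 without treated arrays 1, 2 and 3. They were 452, 539 and 427 without untreated arrays 1, 2 and 3. The balance also moved with the scaling. Higher features were 49.5% of the calls with quantile normalization, and 56.1% (792 higher, 620 lower) when the arrays were scaled to equal medians over the kept probes. They were 37.3% (666 higher, 1120 lower) with equal medians over all probes, an alternative chosen after the data were seen, and 65.1% without treated array 1. In RNA of whole cultures, fewer cells that express a gene and less RNA per cell cannot be told apart, and this holds for each change below.

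**Figure D1:**
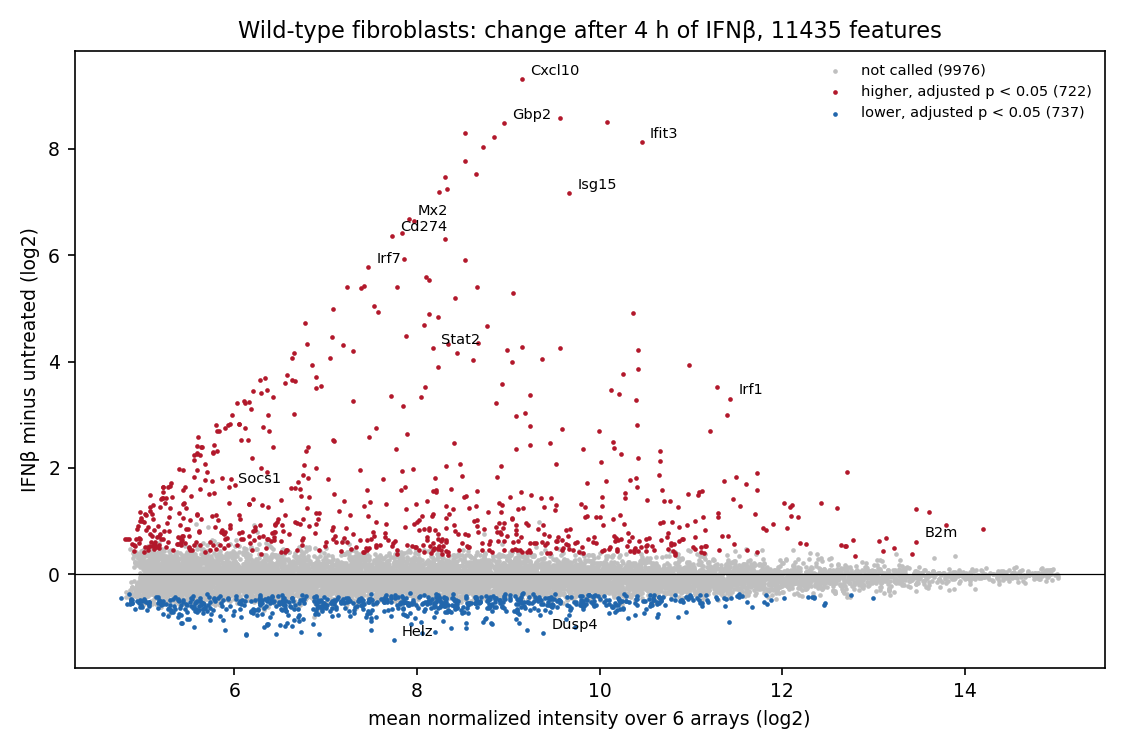
Change after interferon beta of each of 11435 features, with the mean normalized intensity over the 6 arrays on the x axis and the log2 difference IFNβ minus untreated on the y axis; red and blue points are the 722 higher and 737 lower calls. The rises spread up to 9.31, while the largest fall of a named gene was that of Helz at −1.23.

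The largest rise of a named gene was that of Cxcl10, which encodes a chemokine that attracts T cells through the receptor CXCR3. Its log2 intensity was 13.85, 13.80 and 13.77 in treated cells, against 4.46, 4.52 and 4.51 in untreated cells, where this probe was not detected on any array. By this probe it was at least 471-fold higher (fitted log2 difference 9.31 ± 0.10, SE, adjusted p = 1.28e-11), and the difference was 7.04 without background correction. A further probe of Cxcl10, detected on untreated array 2, rose by 7.46 ± 0.30. Gbp2, a guanylate-binding protein that attacks the membranes around intracellular pathogens, stood at 13.34, 13.04 and 13.21 in treated cells and at 4.89, 4.63 and 4.61 in untreated cells, again undetected there. By its brightest probe it was at least 308-fold higher (adjusted p = 7.44e-11), while 2 further, dimmer probes gave 2.89 and 3.63 on the log2 scale. Rsad2, which encodes viperin, an enzyme that makes a chain-terminating nucleotide, stood at 12.66, 12.67 and 12.68 in treated cells and at 4.35, 4.43 and 4.36 in untreated cells. It was at least 214-fold higher (adjusted p = 1.9e-11), and Cmpk2, which neighbours it and encodes a nucleotide kinase of the mitochondrion and was detected on 1 untreated array, rose by 7.25 ± 0.20.

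Usp18, Ifit3 and Isg15 were detected on every untreated array, so their folds are measured on both sides. Usp18, a protease that removes ISG15 and occupies the receptor chain IFNAR2, stood at 14.31, 14.27 and 14.42 in treated cells and at 5.48, 6.08 and 5.94 in untreated cells, a rise of 8.50 ± 0.15 (adjusted p = 2.35e-10). A further probe of Usp18 rose by 7.76. Ifit3, of the family of proteins that bind foreign RNA ends, stood at 14.46, 14.43 and 14.67 in treated cells and at 6.25, 6.34 and 6.61 in untreated cells, a rise of 8.12 ± 0.13. Isg15, a ubiquitin-like protein that is joined to other proteins, stood at 13.22, 13.36 and 13.17 in treated cells and at 5.82, 6.22 and 6.19 in untreated cells, a rise of 7.17 ± 0.13. In each of these genes the lowest treated array lay far above the highest untreated one.

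The other genes among the 15 largest named rises were Igtp, Oasl2, Irgm2, Parp14, Cmpk2, Gbp2b, Mx2, Oasl1 and Cd274. Igtp, Irgm2, Parp14, Cmpk2, Gbp2b and Oasl1 were detected on 1 untreated array each, so the sizes of their rises rest in part on values at background. Mx2, a dynamin-like GTPase that traps viral components, was at least 79.9-fold higher and Oasl2, a relative of the oligoadenylate synthetases, at least 178-fold higher by its brightest probe, with 3.78 and 1.44 on the log2 scale from its other probes. Cd274 encodes PD-L1, a ligand that restrains T cells. It stood at 11.07, 10.65 and 11.004 in treated cells and at 4.71, 4.47 and 4.45 in untreated cells, and was at least 63.1-fold higher. Mx1, a relative of Mx2, stood at 7.53, 7.80 and 7.07 in treated cells and was undetected in untreated cells, at least 5.81-fold higher (adjusted p = 1.74e-06). Its log2 difference was 1.24 without background correction.

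**Figure D2:**
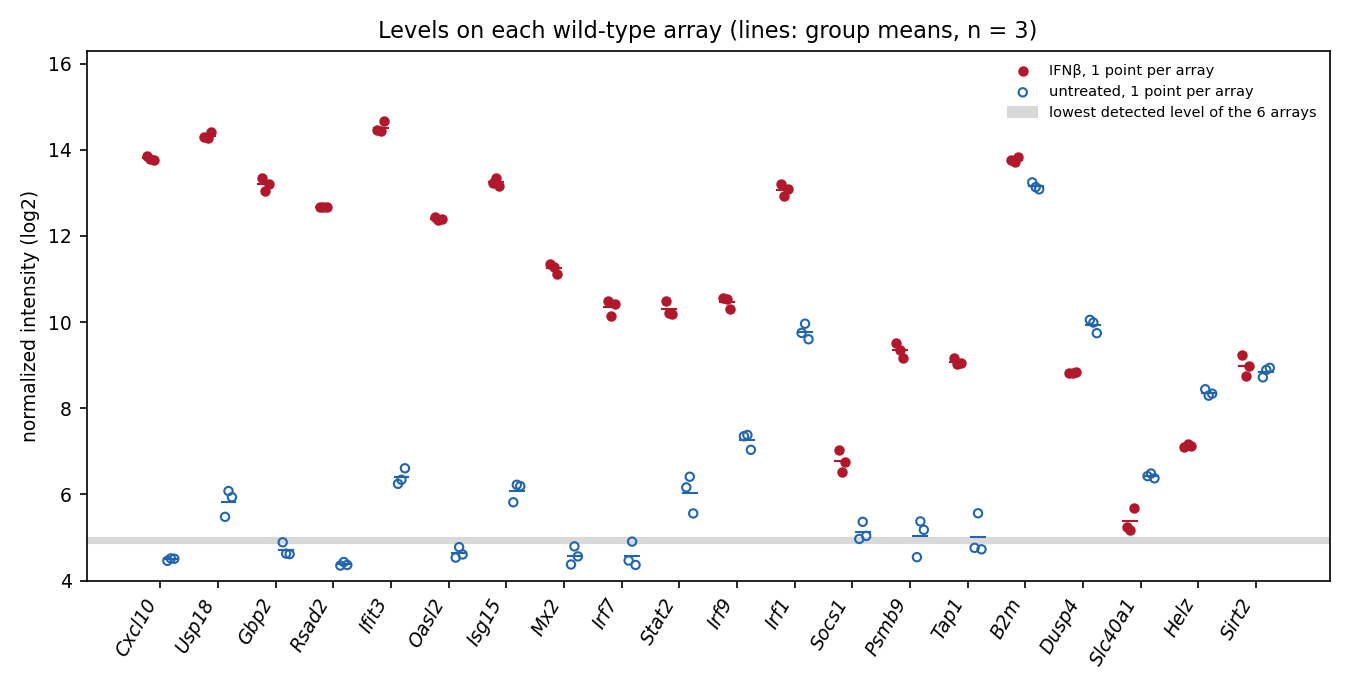
Normalized intensity (log2, y axis) of 20 genes on each array, with the treated arrays (filled red) left of the untreated arrays (open blue) and lines at the group means; the grey band spans the lowest detected level of the 6 arrays. Cxcl10, Gbp2, Rsad2, Oasl2, Mx2 and Irf7 lie at or under the band in untreated cells, and Sirt2 overlaps between the groups.

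For the promoters of these genes, RefSeq windows of build GRCm38.p6 were searched that run from 250 bases before the transcription start to 50 after it. Of the always-named genes among the 15 largest rises, Usp18 and Mx2 are named only, and 6 windows are shown because they let the ISRE be compared between the genes with the largest rises. Capitals mark each match of the ISRE letters, which are TTTC, 2 free bases and TTTC again or, on the other strand, GAAA, 2 free bases and GAAA. Each window is written 5′ to 3′ along the gene's strand.
Cxcl10 (chr5:92348840-92349139, minus strand): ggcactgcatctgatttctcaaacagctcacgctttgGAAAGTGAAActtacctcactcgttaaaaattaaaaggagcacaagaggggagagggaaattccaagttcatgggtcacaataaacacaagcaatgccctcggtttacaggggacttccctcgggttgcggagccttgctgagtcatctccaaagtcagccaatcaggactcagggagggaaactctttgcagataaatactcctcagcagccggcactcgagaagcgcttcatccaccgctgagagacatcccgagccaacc
Gbp2 (chr3:142620413-142620712, plus strand): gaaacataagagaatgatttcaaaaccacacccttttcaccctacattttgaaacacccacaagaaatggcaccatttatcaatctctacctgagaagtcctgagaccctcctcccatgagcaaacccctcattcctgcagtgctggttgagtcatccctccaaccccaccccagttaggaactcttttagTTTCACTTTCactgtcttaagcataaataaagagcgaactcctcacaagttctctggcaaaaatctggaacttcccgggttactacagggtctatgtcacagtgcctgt
Rsad2 (chr12:26456403-26456702, minus strand): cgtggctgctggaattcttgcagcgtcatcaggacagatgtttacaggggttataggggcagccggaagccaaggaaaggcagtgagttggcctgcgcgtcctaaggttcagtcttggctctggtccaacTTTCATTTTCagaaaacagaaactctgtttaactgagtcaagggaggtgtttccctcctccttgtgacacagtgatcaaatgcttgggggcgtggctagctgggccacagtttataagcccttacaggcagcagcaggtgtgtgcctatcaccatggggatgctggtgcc
Ifit3 (chr19:34583279-34583578, plus strand): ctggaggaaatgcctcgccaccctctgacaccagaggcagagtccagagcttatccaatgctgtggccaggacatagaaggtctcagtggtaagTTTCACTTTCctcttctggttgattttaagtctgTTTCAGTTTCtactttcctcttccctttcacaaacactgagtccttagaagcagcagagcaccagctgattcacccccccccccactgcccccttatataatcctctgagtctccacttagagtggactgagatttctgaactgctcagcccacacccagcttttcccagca
Isg15 (chr4:156200769-156201068, minus strand): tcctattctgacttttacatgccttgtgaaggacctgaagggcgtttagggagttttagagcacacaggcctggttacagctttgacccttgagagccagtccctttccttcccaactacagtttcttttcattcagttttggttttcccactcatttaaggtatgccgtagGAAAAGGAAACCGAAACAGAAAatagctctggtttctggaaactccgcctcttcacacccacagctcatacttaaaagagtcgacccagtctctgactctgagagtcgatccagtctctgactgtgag
Oasl2 (chr5:114896684-114896983, plus strand): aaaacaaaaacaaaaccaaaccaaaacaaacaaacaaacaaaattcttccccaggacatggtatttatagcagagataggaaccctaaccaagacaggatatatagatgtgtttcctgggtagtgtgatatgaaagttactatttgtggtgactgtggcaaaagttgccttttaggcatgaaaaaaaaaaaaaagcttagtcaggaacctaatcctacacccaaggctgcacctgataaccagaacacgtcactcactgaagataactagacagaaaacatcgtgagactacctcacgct

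The match began 213 bases before the start in Cxcl10, 59 in Gbp2 and 120 in Rsad2. Ifit3 held 2 matches, at 156 and 122 bases before the start, and Isg15 held 3 that overlap, the first at 78 bases. The window of Oasl2 held none, which says only that these letters are not in these 300 bases. None of the 6 windows held the GAS letters TTCNNNGAA (N is any base), which read the same on both strands.

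Over the named genes with a window, the share that held the ISRE letters went with the size of the rise. It was 66.7% (16 of 24) of genes at least 32-fold higher, 30.0% (12 of 40) at 8- to 32-fold, 18% (30 of 167) at 2- to 8-fold and 8.86% (21 of 237) of genes called higher by less than 2-fold. Among lower genes it was 2.2% (11 of 501), among genes not called 2.99% (196 of 6554) and over all 27025 genes with a window 3.99% (1079 genes). By window, 3.44% of 32851 held the ISRE letters and 8.3% the GAS letters. The GAS letters were held by 20.8% of genes at least 32-fold higher, 22.5% at 8- to 32-fold, 10.2% at 2- to 8-fold and 8.44% under 2-fold, against 6.59% of lower genes, 7.9% of genes not called and 9.55% of all genes with a window. The GAS letters without the ISRE letters were held by 1 of the 24 genes at least 32-fold higher (4.17%) and 6 of the 40 at 8- to 32-fold (15%), against 497 of 6554 genes not called (7.58%). ISRE and GAS matches can overlap in their letters, and a match is not evidence that a factor binds there.

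The matches also lay closer to the start in the genes that rose. In genes at least 2-fold higher, the centres of 83 matches had a median of −59.5 bases from the start and 67.5% lay within the last 150 bases before it, against −144.5 bases and 43.6% of 227 matches in lower or uncalled genes. Each match was counted, so genes with overlapping matches (Isg15) or with matches in several windows (Apol9a and Apol9b) count more than once. Of genes at least 2-fold higher that were undetected on every untreated array, 46.5% (20 of 43) held the ISRE letters, against 16.9% (26 of 154) of those detected on all 3. These shares are descriptions without a test, since related genes share promoter sequence.

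**Figure D3:**
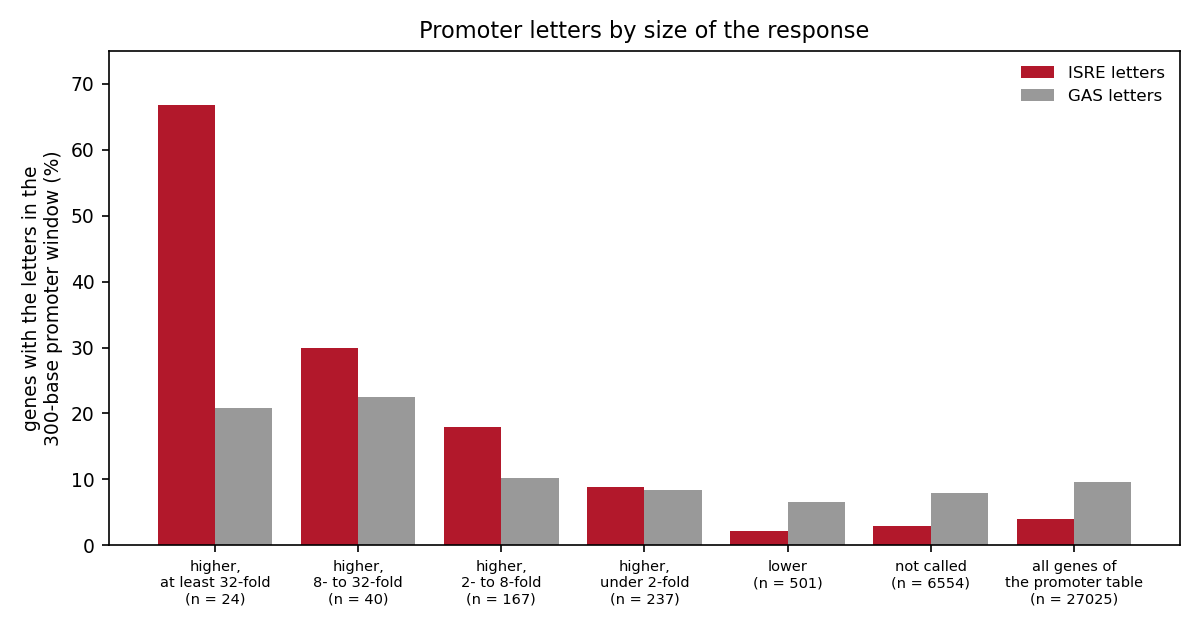
Share of genes (%, y axis) whose 300-base promoter window holds the ISRE letters (red) or the GAS letters (grey), for genes grouped by the size and direction of their change and for all genes of the promoter table. The ISRE share was 66.7% in the genes at least 32-fold higher, against 2.2% in lower genes.

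Among the components that carry the signal, the largest rises were those of Stat2, Ifi35 and Irf9. Of the 14 genes of the receptor and JAK-STAT list with a probe analysed here, 11 were tested. Of these 7 were higher (63.6%, against 6.31% of all features) and 0 lower, with a median of 0.52 against −0.06 over all features. Ifnar2 stood at 6.83, 6.85 and 6.74 in treated cells and at 6.29, 6.38 and 6.38 in untreated cells, a rise of 0.46 ± 0.10 (adjusted p = 0.0176). The call was lost without treated array 1 (adjusted p = 0.0768) or treated array 2 (adjusted p = 0.0552). Jak1 differed by −0.04 ± 0.19 and Tyk2 by −0.10 ± 0.11, neither past the threshold. Jak2, a kinase of other cytokine receptors, stood at 8.66, 8.36 and 8.61 in treated cells and at 7.79, 7.39 and 7.36 in untreated cells, a rise of 1.03 ± 0.15 (adjusted p = 0.00117). Jak2 and Stat3 were named after their values were seen. The probe of Ifnar1 was detected on none of the 6 arrays.

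Stat2 stood at 10.50, 10.22 and 10.19 in treated cells, against 6.16, 6.41 and 5.56 in untreated cells, a rise of 4.26 ± 0.20 (adjusted p = 2.27e-07). Irf9, its DNA-binding partner, stood at 10.56, 10.54 and 10.31 in treated cells and at 7.35, 7.38 and 7.04 in untreated cells, a rise of 3.21 ± 0.13. RNA for these subunits of the complex that reads the ISRE was raised, with no overlap between the groups. Ifi35 and Nmi, which bind each other and are induced by interferons, rose by 4.03 ± 0.20 and, for Nmi, at least 1.72-fold. Stat3, which carries signals of the interleukin 6 family, rose by 0.52 ± 0.14 (adjusted p = 0.0412), a call lost with a replicate block (adjusted p = 0.0576) and without any 1 array other than treated array 2 (adjusted p from 0.0724 to 0.156). The STAT genes Stat5a and Stat6 were not called.

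Of 10 interferon regulatory factors and IRF2-binding proteins, 7 were tested and 4 were higher (57.1%, against 6.31% of all features). Irf7, which drives the interferon alpha genes, stood at 10.48, 10.15 and 10.42 in treated cells and was undetected in untreated cells, at least 42.9-fold higher (adjusted p = 3.71e-09). This bound holds with background correction, and the rise was smaller than the bound without it. Irf1 was already well detected and stood at 13.20, 12.94 and 13.09 in treated cells, against 9.75, 9.96 and 9.60 in untreated cells. Its rise was 3.31 ± 0.13 and its 5 kept probes gave rises of 2.34 to 3.70. Irf5 rose by 3.90 ± 0.20, and Irf2, known as an antagonist of Irf1, by 1.38 ± 0.10 (adjusted p = 6.89e-06). Irf3, a transcription factor that acts before interferon is made and needs no induction, differed by 0.05 and was not called.

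Of the feedback inhibitors, 12 of 13 were tested and 4 were higher (33.3%, against 6.31% of all features), with a median of −0.03. Besides Usp18 these were genes of the SOCS family, whose proteins bind JAK kinases or cytokine receptors. Socs1, the member known for blocking interferon signalling, stood at 7.03, 6.52 and 6.75 in treated cells and at 4.97, 5.36 and 5.04 in untreated cells, a rise of 1.64 ± 0.16 (adjusted p = 6.26e-05). Socs2 rose by 1.39 ± 0.14 and Cish by 0.85 ± 0.13 (adjusted p = 0.00168). The remaining 8 tested members, among them the PIAS genes and the phosphatases of the JAKs, were not called.

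The interferon genes themselves were mostly undetected. Of 12 on the arrays, 8 including Ifnb1 were detected on none of the 6 arrays. Ifnz was detected on each array by 1 or another of its 4 probes, but none of these was detected on more than 2 treated arrays or 1 untreated array, and it was not tested. The tested one, Ifnab, differed by 0.17 and was not called (adjusted p = 0.534).

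Of 42 antiviral effector genes, 38 are on the arrays and 35 were tested. Each of the 35 tested members was higher (100%, against 6.31% of all features). Their median was 3.11, or 3.01 with undetected genes at their lower bound. The detection filter bears on this count: 17 of the 35 passed it through the treated arrays alone, and the other 18, detected on all 3 untreated arrays, were also higher. Ifit2, unlike Ifit3, was well detected before treatment: it stood at 12.99, 12.85 and 13.00 in treated cells, against 9.15, 9.14 and 8.75 in untreated cells, a rise of 3.93 ± 0.13 (adjusted p = 1.97e-08). The probe of Ifit1 was detected on 2 treated arrays and on 0 untreated arrays and was not tested. Bst2, which encodes tetherin, a protein that holds budding virus at the membrane, rose by 3.37 ± 0.14 from a detected level.

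In the ISG15 system, the successive enzymes of conjugation and removal rose together. Of 6 members 5 were tested, each detected on all untreated arrays, and 5 were higher (100%, against 6.31% of all features). Uba7, the enzyme that activates ISG15, stood at 10.80, 10.73 and 10.41 in treated cells and at 5.09, 6.63 and 5.72 in untreated cells, a rise of 4.83 ± 0.31 (adjusted p = 2.87e-06). Ube2l6, which receives ISG15 from it, stood at 9.79, 9.74 and 9.60 in treated cells and at 6.28, 6.57 and 6.28 in untreated cells, a rise of 3.33 ± 0.12. Usp18, which removes ISG15 again, rose by 8.50. RNA for the modifier, its activating and conjugating enzymes and the protease was raised at 4 h.

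The guanylate-binding and immunity-related GTPases, which act against bacteria and parasites inside the cell, gave the highest list median. Of 21 genes 12 were tested and 12 were higher (100%, against 6.31% of all features). The median was 5.66, or 5.47 with undetected genes at their bound. Here 8 of the 12 passed the filter through the treated arrays alone. Igtp stood at 13.02, 12.77 and 13.07 in treated cells and at 4.50, 5.14 and 4.54 in untreated cells, a rise of 8.23 ± 0.18, with detection on 1 untreated array. Irgm2 rose by 7.53 ± 0.13 and Gbp2b by 7.19 ± 0.17. Irgm1, chosen after its values were seen, shows how the probe can set the size: its brightest probe gave 1.16 ± 0.12, and 2 further probes gave 3.82 and 3.27. Members of these families are close in sequence, and reads of a paralog by a probe were not tested.

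Among sensors of foreign RNA and DNA, 18 of 21 genes were tested and 13 were higher (72.2%, against 6.31% of all features). The list median was 0.84. Of the 18, 5 passed the filter through the treated arrays alone, and of the 13 detected on all untreated arrays 8 were higher. Ddx58, which encodes the RNA sensor RIG-I, stood at 10.06, 9.94 and 10.16 in treated cells and at 4.78, 5.50 and 4.74 in untreated cells, a rise of 5.05 ± 0.19 with detection on 1 untreated array, while a dim further probe rose by 0.65. Dhx58, its relative LGP2, detected on 2 untreated arrays, rose by 4.93 ± 0.19. Trex1, an exonuclease that removes cytoplasmic DNA, stood at 11.11, 10.95 and 11.04 in treated cells and at 6.79, 7.25 and 7.10 in untreated cells, a rise of 3.99 ± 0.13. Tlr3, the endosomal receptor for double-stranded RNA, was undetected before treatment and at least 7.97-fold higher. Of the Ifi200 family of DNA-binding proteins, 6 of 13 were tested and 6 were higher (100%, against 6.31% of all features). Of these, 5 passed the filter through the treated arrays alone. Ifi202b, the member detected on all untreated arrays, rose by 4.28 ± 0.15, and Ifi207 was at least 13.3-fold higher.

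Genes of antigen processing rose by unequal amounts. Of 26 genes of MHC class I and peptide loading, 18 were tested and 15 were higher (83.3%, against 6.31% of all features). The median was 2.18, or 2.02 with bounds. Of the 18, 7 passed the filter through the treated arrays alone, and of the 11 detected on all untreated arrays 8 were higher. Tap1, a subunit of the peptide transporter, stood at 9.16, 9.02 and 9.05 in treated cells and at 4.76, 5.56 and 4.73 in untreated cells, a rise of 4.06 ± 0.20 (adjusted p = 3.56e-07), with detection on 1 untreated array. Its partner Tap2, detected on 2 untreated arrays, rose by 3.51 ± 0.26, and Nlrc5, the transactivator of the class I genes, by 3.51 ± 0.15. B2m, the light chain shared by the class I molecules, stood at 13.76, 13.72 and 13.84 in treated cells and at 13.24, 13.13 and 13.08 in untreated cells. Its rise of 0.62 ± 0.11 was small, without overlap between the groups (adjusted p = 0.00389).

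Of 7 genes of the immunoproteasome and its activator 5 were higher (71.4%, against 6.31% of all features), with a median of 1.69. No tested subunit of the standard proteasome core was called. Psmb9 stood at 9.52, 9.36 and 9.18 in treated cells and at 4.54, 5.37 and 5.18 in untreated cells, a rise of 4.32 ± 0.20, with detection on 2 untreated arrays. Psmb8, undetected before treatment, was at least 25-fold higher by its brightest probe, with 1.86 on the log2 scale from the other, and Psmb10 rose by 2.99 ± 0.12. These 3 subunits replace the catalytic subunits of the standard core when new particles are made. The activator subunit Psme1 rose by 1.69 ± 0.13. Of 12 tested standard core subunits 0 were higher and 0 lower, with a median of 0.04 and values from −0.09 to 0.16. This list holds the 3 subunits that are replaced.

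Of 35 chemokines and cytokines 24 were tested, 16 were higher (66.7%, against 6.31% of all features) and 1 was lower (4.17%, against 6.45%). The median was 0.96, or 0.67 with bounds. Of these 24, 12 passed the filter through the treated arrays alone, and of the other 12, detected on all untreated arrays, 5 were higher. Il15, a cytokine for natural killer cells and memory T cells, stood at 10.63, 10.55 and 10.56 in treated cells and at 5.18, 5.90 and 6.001 in untreated cells. Its rise was 4.89 ± 0.19, and its further kept probes rose by 4.55 and 2.62. Ccl7, a chemokine for monocytes, stood at 12.58, 12.40 and 12.69 in treated cells and at 9.55, 10.38 and 9.64 in untreated cells, a rise of 2.70 ± 0.20 (adjusted p = 9.42e-06). Ccrl2, an atypical chemokine receptor detected on 1 untreated array, rose by 3.65 ± 0.17. The member that fell was Cxcl12, named after its values were seen, which keeps blood progenitor cells in their niche. It stood at 10.94, 11.08 and 10.90 in treated cells and at 11.95, 11.80 and 11.85 in untreated cells, a fall of 0.89 (log2 difference −0.89 ± 0.11, adjusted p = 0.000377). Its further, dimmer probes gave −0.70 and −0.80, also called lower, and −0.16, not called (adjusted p = 0.449).

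Of the ADP-ribosyltransferases with Dtx3l, 12 of 14 genes were tested and 8 were higher (66.7%, against 6.31% of all features). The list median was 1.29. Of the 9 detected on all untreated arrays 5 were higher. Parp14 stood at 12.04, 11.997 and 12.07 in treated cells and at 4.40, 4.95 and 4.35 in untreated cells, a rise of 7.47 ± 0.16, while its 2 dimmer probes rose by 1.27 and 1.91. Dtx3l, the ubiquitin ligase that partners with Parp9, rose by 5.41 ± 0.13 (0.59 by a dimmer probe, not called), Parp12 by 4.35 ± 0.12 and Parp10, detected on 2 untreated arrays, by 3.54 ± 0.17. Parp1, the abundant DNA repair enzyme of the family, differed by −0.22 and was not called. Of the TRIM and nuclear body genes 10 of 18 were tested and 9 were higher (90%, against 6.31% of all features). The list median was 2.19. Of the 10, 4 passed the filter through the treated arrays alone, and of the 6 detected on all untreated arrays 5 were higher. Trim21, a cytosolic antibody receptor, rose by 5.59 ± 0.13 by its brightest probe and by 1.92 by another, while a further probe differed by 0.52 and was not called, and Sp100, a nuclear body protein, was at least 5.82-fold higher. Of 9 Schlafen genes 3 were tested, each through the treated arrays alone, and 3 were higher (100%, against 6.31% of all features). Slfn9 was at least 2.47-fold, Slfn2 at least 2.26-fold and Slfn1 at least 1.48-fold higher.

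Of 20 surface proteins 12 were tested and 8 were higher (66.7%, against 6.31% of all features), with a median of 1.61. Besides Cd274, the largest rises were those of Lgals9, a galectin, at 4.05 ± 0.18 and of Lgals3bp, a galectin-binding glycoprotein, at 3.76 ± 0.14. Of 18 interferon-linked metabolic enzymes 9 were tested and 8 were higher (88.9%, against 6.31% of all features), with a median of 1.84. Ch25h, which makes the antiviral sterol 25-hydroxycholesterol, stood at 10.55, 10.42 and 10.58 in treated cells and at 6.06, 6.51 and 6.51 in untreated cells, a rise of 4.16 ± 0.14. The apolipoprotein L genes Apol9a and Apol9b rose by 5.53 ± 0.12 and 5.40 ± 0.13, with Apol9b detected on 2 untreated arrays.

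Of 27 cell death genes 20 were tested, 8 were higher (40%, against 6.31% of all features) and 2 were lower (10%, against 6.45%), with a median of −0.01. The rises held parts of several death pathways. Daxx, a partner of the death receptor Fas, stood at 11.87, 11.89 and 11.97 in treated cells and at 8.25, 8.94 and 8.34 in untreated cells, a rise of 3.40 ± 0.17. Casp4, a caspase that senses bacterial lipopolysaccharide, was undetected before treatment and at least 3.36-fold higher. Gsdmd, the pore-forming protein that Casp4 cleaves, rose by 1.44 ± 0.13, and Bid, which links caspase-8 to the mitochondrion, by 1.46 ± 0.12. The larger of the falls was that of the survival gene Bcl2 (named after its values were seen), which stood at 5.91, 6.01 and 5.77 in treated cells and at 6.75, 7.02 and 6.72 in untreated cells (−0.93 ± 0.12, adjusted p = 0.000742). Its further, dimmer probes gave −1.05, also called lower, and −0.25 and −0.49, not called (adjusted p = 0.317 and 0.303). The count of falls was 1 without treated array 1 or treated array 3.

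**Figure D4:**
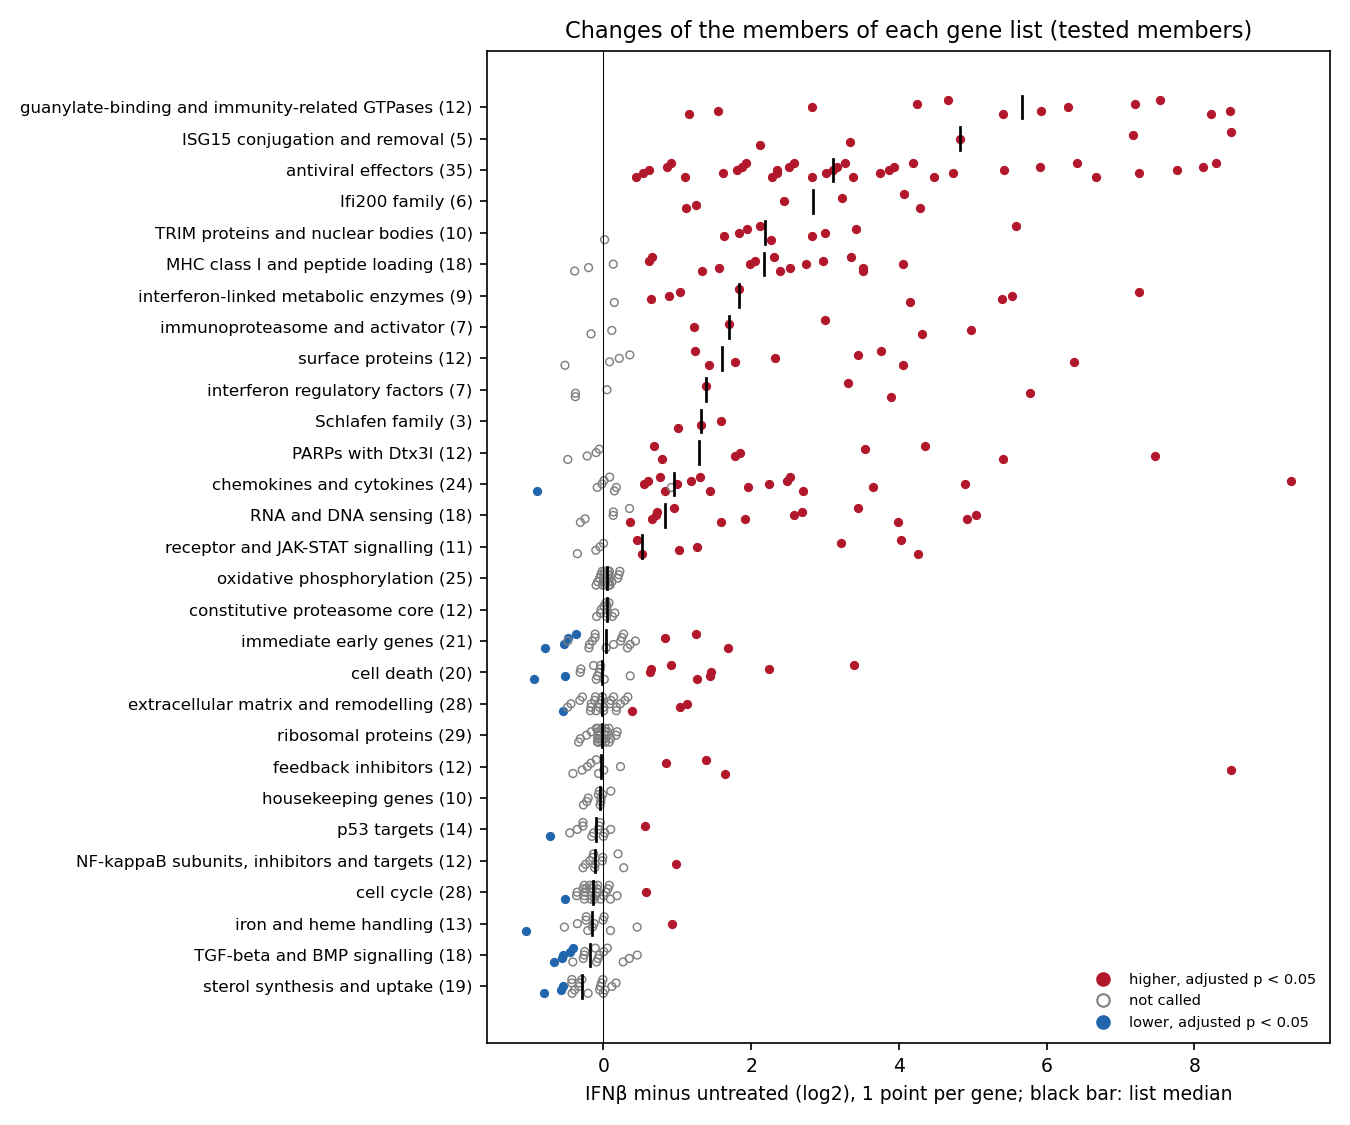
Log2 difference IFNβ minus untreated (x axis) of the tested members of each gene list (y axis, number tested in brackets), with black bars at the list medians; filled red points were called higher, filled blue lower, open grey were not called. The list medians run from 5.66 for the GTPases to −0.29 for sterol genes.

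The lists of other pathways and cell functions had medians from −0.29 to 0.04, against −0.06 over all features, and their shares of called members were unequal. Of 12 tested NF-kappaB subunits, inhibitors and targets 1 was higher (8.33%, against 6.31% of all features), and the list median was −0.11. The higher gene was Nfkbiz (0.98 ± 0.13), an inducible nuclear IkappaB protein. The list does not hold the cytokine genes Il6 and Ccl2, which were named after their values were seen. Il6, undetected before treatment, was at least 3.52-fold higher, and Ccl2 rose by 2.49 ± 0.18. Of 21 tested immediate early genes 3 were higher (14.3%, against 6.31% of all features) and 4 lower (19%, against 6.45%). Atf3, a stress-induced repressor, stood at 7.08, 6.78 and 6.67 in treated cells and at 4.96, 4.97 and 5.56 in untreated cells, a rise of 1.68 ± 0.18. Zfp36, which destabilises cytokine mRNAs, rose by 1.26 ± 0.11. Egr2, a growth factor-induced transcription factor, stood at 6.74, 6.76 and 6.54 in treated cells and at 7.46, 7.44 and 7.51 in untreated cells (−0.79 ± 0.11, adjusted p = 0.000971). The count of lower members was 2, 1 and 1 without treated arrays 1, 2 and 3, and that of higher members was 6 without background correction.

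Of 19 tested genes of sterol synthesis and uptake 0 were higher and 3 lower (15.8%, against 6.45% of all features), with the lowest list median, −0.29. The count of lower members was 6 without background correction and 5 with medians scaled over all probes. Dhcr7, which makes cholesterol from its last precursor, stood at 5.80, 5.63 and 5.60 in treated cells and at 6.32, 6.89 and 6.22 in untreated cells (−0.80 ± 0.17, adjusted p = 0.0131), a call lost without a detection filter (adjusted p = 0.0596). Stard4, a cholesterol carrier, differed by −0.57 ± 0.11 (adjusted p = 0.00703). The third, Msmo1, differed by −0.55 ± 0.12, and its call was lost without treated array 2 (adjusted p = 0.0521) or treated array 3 (adjusted p = 0.0534). Of 18 tested genes of TGF-beta and BMP signalling 0 were higher and 5 lower (27.8%, against 6.45% of all features), with a median of −0.18. Tgfbr1, a receptor kinase for TGF-beta, stood at 9.10, 8.93 and 9.19 in treated cells and at 9.70, 9.74 and 9.78 in untreated cells (−0.67 ± 0.11, adjusted p = 0.00324). A further, dimmer probe of Tgfbr1 differed by −0.46 and was not called (adjusted p = 0.216). The further probes of the lower members Bmpr1a (−0.07, adjusted p = 0.755) and Smad5 (0.05, adjusted p = 0.867) were not called either. That list's count of falls was 1, 3 and 3 without treated arrays 1, 2 and 3, and 2, 3 and 2 without untreated arrays 1, 2 and 3, and 1 member was higher without untreated array 1.

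Of 28 tested cell cycle genes 1 was higher and 1 lower (3.57% each). Of 28 tested extracellular matrix genes 3 were higher (10.7%) and 1 lower (3.57%). Over all features 6.31% were higher and 6.45% lower. The matrix genes that rose most were the proteases Mmp10 (1.13 ± 0.14) and Mmp13 (1.03 ± 0.17). Cdc20 differed by −0.52 ± 0.10, but its 3 further kept probes (−0.27, −0.38 and −0.30) were not called (adjusted p from 0.162 to 0.199), and with the median over its probes the call was lost (adjusted p = 0.0993). The remaining calls of these lists depended on single arrays. Ccnd3 (0.58 ± 0.12) was not called without treated array 1 (adjusted p = 0.0655) or untreated array 3 (adjusted p = 0.0548). Timp1 (0.38 ± 0.10) was not called without any 1 of the 6 arrays (adjusted p from 0.0772 to 0.121), nor Col5a2 (−0.54 ± 0.13) without treated array 1 or 3 or untreated array 1 or 2 (adjusted p from 0.0557 to 0.115). Of 14 tested p53 targets Cdkn1a, an inhibitor of cyclin-dependent kinases, rose by 0.57 ± 0.11 and Zmat3, an RNA-binding protein, differed by −0.72 ± 0.13. That is 7.14% of the list in each direction, near the shares over all features. A count of 2 lower members was found without treated array 3 in the p53 list, without untreated array 2 in the iron list and without untreated array 3 in the matrix list. Of 13 tested genes of iron and heme handling, Hmox1, which degrades heme, rose by 0.94 ± 0.11. Slc40a1, the iron exporter ferroportin, stood at 5.25, 5.18 and 5.70 in treated cells and at 6.42, 6.49 and 6.37 in untreated cells (−1.05 ± 0.14, adjusted p = 0.000946). The calls of Hmox1 and Slc40a1 are 7.69% of the iron list in each direction, also near the shares over all features. None of 29 ribosomal protein genes, 25 genes of oxidative phosphorylation and 10 housekeeping genes tested was called in either direction, with list medians of −0.02, 0.04 and −0.05. At an unadjusted p under 0.05 (limma) these lists held 1, 0 and 0 genes and the standard proteasome core 0, and 1 ribosomal protein gene was called lower with no background correction. Sirt2, which the wild-type cells carry, differed by 0.13 ± 0.14 (adjusted p = 0.601), with overlapping groups.

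The largest falls of named genes were close to 2-fold. Helz, which encodes an RNA helicase, stood at 7.11, 7.16 and 7.12 in treated cells and at 8.44, 8.29 and 8.34 in untreated cells (−1.23 ± 0.10, adjusted p = 2.15e-05), and its 5 kept probes ranged from −1.23 to −0.35. Gna14, a G protein subunit, differed by −1.13 ± 0.15, Aph1b, a subunit of gamma-secretase, by −1.12 ± 0.16 and Grip1, a scaffold of glutamate receptors, by −1.11 ± 0.18. Dusp4, a phosphatase of MAP kinases, stood at 8.83, 8.83 and 8.83 in treated cells and at 10.05, 9.99 and 9.74 in untreated cells (−1.10 ± 0.12, adjusted p = 0.000126). Its 2 further probes gave −0.50 and −0.54, and with the median over its probes the call was lost (adjusted p = 0.0643). Hook3 differed by −1.11 ± 0.13, while a further probe stood at 0.15. The remaining 4 of the 10 largest falls were those of Nfatc1 (−1.09 ± 0.16), Pank3 (−1.07 ± 0.16), Slc40a1 and Rubcn (−1.04 ± 0.10). They do not share a list.

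Genes with several kept probes allow the direction to be read more than once. The calls of the other probes come from a separate fit to all kept probes. Of 107 genes at least 2-fold higher with several kept probes, every other probe was also called higher in 98 and had the same sign in 107. The size often differed, as in the examples above. Of 247 lower genes with several kept probes, every other probe was also called lower in 56 and had the same sign in 222, and a probe called the opposite way was found in 0.

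Many of the genes that rose lie next to each other in the genome. Of 283 genes at least 2-fold higher that have a place in the RefSeq order of tested genes, 87 (30.7%) had an adjacent tested gene that was also at least 2-fold higher, against 438 of 8813 other genes (4.97%). Runs of 3 or more such genes numbered 15 and held 55 genes. The longest, of 6 genes, was the Ifi200 cluster from Ifi207 to Ifi205. Runs of 5 were the guanylate-binding proteins from Gbp5 to Gbp2, the GTPases from Irgm1 to Ifi47 and the Oas genes. The MHC region gave the run Psmb9, Tap1, Psmb8 and Tap2, and further runs were Psme2, Rnf31 and Irf9, and Parp14, Dtx3l and Parp9. Of 611 lower genes 20.6% had an adjacent lower gene, against 12.3% of the other genes. Paralogs side by side can share probe sequence, and how much of these runs that gives was not tested. The order holds tested genes only, so a gene silent in untreated cells enters it only if detected on all treated arrays. Neighbours that stayed silent are left out. This can raise the share of 30.7%, by an amount that was not tested.

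Before treatment the untreated arrays did not hold the interferon-stimulated genes at a common level. Of 98 features at least 8-fold higher after treatment, 98 were detected on each treated array, against 49, 75 and 51 on untreated arrays 1, 2 and 3. The count on the treated arrays follows from the detection filter and the choice of large rises. Only 45 of the 98 were detected on all 3 untreated arrays, and the others passed the filter through the treated arrays alone. Untreated array 2 held the highest of the 3 untreated values in 73 of the 98. The median log2 intensity of the 98 features was 10.62, 10.54 and 10.56 on treated arrays 1, 2 and 3, and 4.94, 5.55 and 5.11 on untreated arrays 1, 2 and 3. Untreated array 2 exceeded the mean of the other untreated arrays by a median of 1.01% of the treated level (quartiles 0.128% and 2.43%), up to 7.37% for Tap2. Rsad2 and the brightest probe of Cxcl10 were undetected on array 2 as on the others, while the further probe of Cxcl10 was detected there alone. The source of this difference was not tested.

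The spread between arrays was unequal for these features. The SD over arrays had a median of 0.121 in treated cells and 0.243 in untreated cells for the 98 features, against 0.127 in treated cells and 0.152 in untreated cells over all features. Restricted to the 45 features detected on all 3 untreated arrays, it was 0.0925 in treated cells and 0.25 in untreated cells. Of 722 higher features, 536 were detected on all untreated arrays, 83 on 1 or 2 of them, and 103 on none. For the last of these the size of the rise has only a lower bound. Of the lower features 26 were detected on all untreated and no treated arrays.

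**Figure D5:**
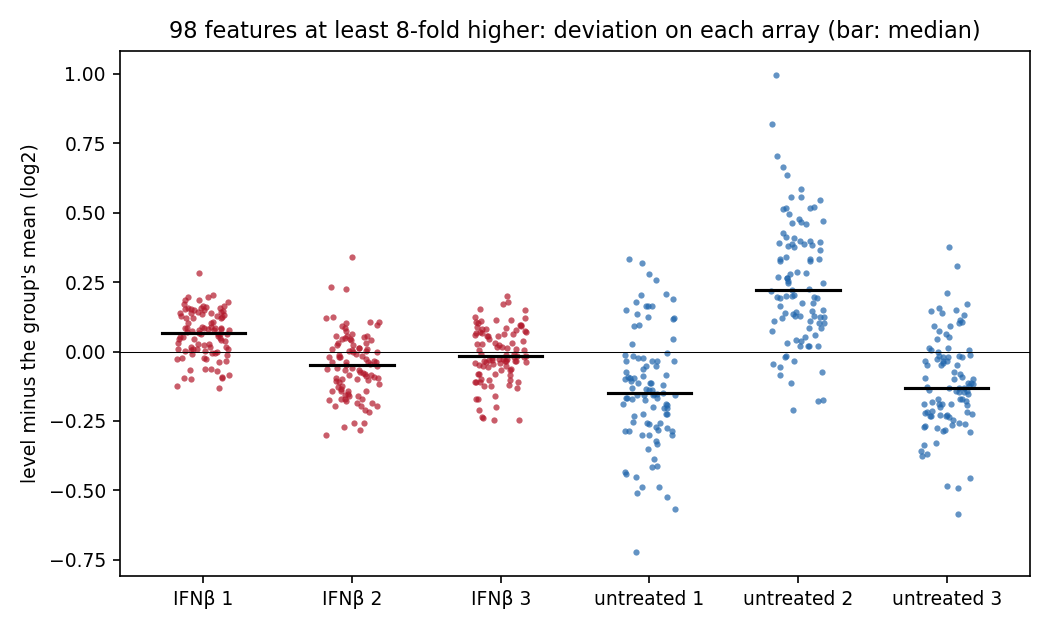
Level of each of the 98 features at least 8-fold higher, as the deviation from its group's mean (log2, y axis) on each array (x axis), with bars at the medians. The median deviation was 0.220 on untreated array 2, against −0.151 and −0.132 on untreated arrays 1 and 3, and lay between −0.05 and 0.068 on the treated arrays.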

How the data were processed

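The deposited probe table gives a linear, unscaled intensity for each array, followed by its detection p-value, per the file headers. The authors' other deposited table is on the log2 scale and equals the quantile-normalized intensities after log2 within 0.00064. The scanner software, genome build and chip are not given in the sources used here. Exactly 1 gene symbol is attached to 34885 of 45281 probes, several to 18 and none to 10378. Looking up 34807 of them in RefSeq by gene ID changed 0.

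The neqc function of limma 3.58.1 (R 4.3.3) was run on all 12 arrays: normexp background correction by detection p, an offset of 16, quantile normalization and log2. The brightest kept probe over the 6 arrays stood for a gene. limma's lmFit and eBayes were run on the 6 wild-type arrays, two-sided, with Benjamini-Hochberg adjustment over 11435 features, and tested on simulated data. Values and calls of further probes come from a separate limma fit to all 16660 kept probes, adjusted over those. The adjusted p of a probe differs between the fits: that of the brightest Timp1 probe was 0.0403 in the main fit and 0.0535 in the other. Errors are standard errors with n = 3 arrays per group, and the number of arrays limits the precision. A gene undetected on all 3 arrays of a group has only a bound there: its fold ("at least") sets the treated mean against the lowest detected level of each untreated array, or the gene's own value where higher. The bound holds for background-corrected values only, and folds without that correction can be smaller, as for Irf7 and Mx1.

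The rule for named genes takes the 15 largest rises and 10 largest falls whose groups do not overlap, the 4 largest changes of each list and 24 genes always. Members and lists were chosen with earlier results of these data known, and lists are described by counts and medians without a test. Alternatives concerned scaling, background, filter, spread, probe choice, a replicate block and each array left out.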

Additional observations from a re-analysis of the deposited data

How the results depend on the processing

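No call of a gene named by the rule reversed its direction under any alternative run. Of 1907 recomputed values 1862 stayed on their side of the threshold and 45 lost the call. A change of sign in an uncalled gene was not counted. Calls were lost by Ifnar2, Klf4, Ccnd3, Timp1, Krt19, Bmpr1a, Ski, Smad5, Col5a2, Msmo1, Cdc20, Dhcr7 and Dusp4. Over the alternatives that kept all arrays, 536 to 792 features were higher and 513 to 1120 lower, with 1120 lower where medians were scaled over all probes. Leaving out 1 array gave 547 to 654 higher, 293 to 539 lower, 344 to 356 at least 2-fold higher and 12 to 22 at least 2-fold lower. Rises of at least 2-fold numbered 225 with no background correction and with the deposited log2 values, and 215 when detection on all 6 arrays was required, which removes genes undetected before treatment. Falls of at least 2-fold numbered 0 with no background correction and with the deposited values, 9 with the median over probes and 25 with medians scaled over all probes. Of the 348 rises of at least 2-fold, 348 were also called higher without background correction, where 38 of 105 called named genes had a log2 change over 1.5 times smaller (Irf7 3.66, Mx1 1.24). Of 1368 recounts of list members 109 moved by over 1.5 times; among these, leaving out untreated array 1, 3 or 2 gave 1 lower member in the lists of interferon regulatory factors, PARPs and surface proteins, in that order. With the replicate block 737 features were higher and 799 lower, and it ended no other call of the genes the text names than those of Krt19 (adjusted p = 0.0522) and Stat3 (0.0576). The labels do not say that equal numbers mark paired samples: same-numbered arrays deviated together with correlations of 0.045, 0.18 and 0.16, and 5 of 6 arrays deviated most like the array of their own number, a hint from the data and not the design. Chip or scan as a block was not run, since no header names one. Dim probes limit the sizes: below background only bounds can be given.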

Other observations

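Some of the genes with large rises belong to none of the lists. These and the genes below were chosen after their values were seen. Hap1, which encodes a partner of huntingtin, stood at 10.08, 10.31 and 9.84 in treated cells and at 4.54, 4.71 and 4.83 in untreated cells, undetected there, and was at least 35.5-fold higher (adjusted p = 2.75e-09), while a dimmer probe rose by 0.95. Samd9l, a growth-restraining antiviral factor, stood at 12.87, 12.61 and 12.97 in treated cells and at 7.62, 8.24 and 7.86 in untreated cells, a rise of 4.91 ± 0.17 (adjusted p = 1.97e-08). Batf2, a transcription factor of the AP-1 family, was at least 6.99-fold higher. Tent5a, detected on 1 untreated array, rose by 3.71 ± 0.23, and by 1.09 by a dimmer probe. Genes of development and growth also rose without overlap between the groups. Gdnf, a neurotrophic factor, stood at 10.59, 10.64 and 10.65 in treated cells and at 7.87, 7.79 and 7.88 in untreated cells, a rise of 2.78 ± 0.10 (adjusted p = 3.13e-08). The homeobox genes Hoxd4 and Hoxb2 rose by 1.45 ± 0.17 and 1.26 ± 0.14, the growth factor Fgf10 by 1.09 ± 0.14 and the pattern-recognition protein Ptx3 by 1.39 ± 0.18.

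Among the falls were genes of growth factor and Notch signalling. Fgf5, a fibroblast growth factor, stood at 6.002, 5.93 and 6.498 in treated cells and at 7.01, 7.10 and 7.23 in untreated cells (−0.97 ± 0.16, adjusted p = 0.00269). Fgfr2, a receptor of this family, stood at 7.65, 7.92 and 7.96 in treated cells and at 8.67, 8.78 and 8.72 in untreated cells (−0.88 ± 0.12, adjusted p = 0.000815). Flrt3 differed by −0.92 ± 0.13, and the ephrin Efnb2 by −0.75 ± 0.11. Of Notch target genes, Nrarp differed by −0.90 ± 0.15 (adjusted p = 0.00346) and Hes1 by −0.79 ± 0.16 (adjusted p = 0.0115). The call of Hes1 was lost without a detection filter (adjusted p = 0.0514). None of these groups was tested as a set.

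Ccl5, a chemokine often induced by interferon, did not pass the threshold (0.92 ± 0.34, adjusted p = 0.108). It stood at 6.13, 7.67 and 6.23 in treated cells and at 5.64, 5.77 and 5.87 in untreated cells, so that treated array 2, which also held transcripts otherwise found in the Sirt2-/- arrays, stood apart from the other treated arrays.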
